A study of Mus musculus with 12 samples.

Results

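Class II major histocompatibility complex (MHC) molecules display peptides from taken-up protein to CD4+ T cells. They are heterodimers of an α and a β chain, and the invariant chain, encoded by Cd74, guides the new dimers to the endosome and blocks the peptide groove until proteases trim it away. In the lung the dendritic cells and macrophages that carry CD11c are among the cells known to present antigen this way, and the class II genes are transcribed together under the coactivator CIITA.

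The genes described here are all 5 class II chain genes and invariant chain of the measured panel, of 754 endogenous genes in all. They are Cd74 (invariant chain), H2-Aa and H2-Ab1 (the α and β chains of I-A), H2-Eb1 (the β chain of I-E) and H2-Ea-ps (the α chain of I-E). They were taken by name and not by any measured value. The last is listed in RefSeq as a transcribed pseudogene, and some mouse strains are known not to make an I-E α chain; the strain used here was not stated. RefSeq places H2-Ab1, H2-Aa and H2-Eb1 next to each other in that order on chromosome 17, H2-Ea on the same chromosome between H2-Eb2 and Btnl2, and Cd74 on chromosome 18.

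All animals in all 4 groups were RELMa-/- mice, which lack resistin-like molecule alpha (RELMα), a secreted protein of macrophages and epithelium in type 2 responses. Every mouse was infected with 500 third-stage larvae of Nippostrongylus brasiliensis, a hookworm-like nematode that passes through the lung, and lungs were taken at day 10. CD11c+ cells were sorted, cultured overnight, serum-starved (for 1 h in one description and 2 h in another) and given either 500 ng/ml recombinant RELMα (rRELMa) or PBS for 4 h. Each treatment was assayed in run 1 and in run 2 with 3 samples each, 12 samples in total, so the groups are run 1 PBS, run 1 rRELMa, run 2 PBS and run 2 rRELMa. The age of the mice, what distinguished the runs, and whether the samples of a group were separate animals or cultures were not stated. All p-values therefore rest on the scatter among these 12 samples, which could be technical only.

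Lysate of about 5000 cells per sample was read on a NanoString nCounter panel, which counts barcoded probe pairs bound to each RNA without amplification. Endogenous counts summed to 179719 to 257415 per sample in run 1 and to 411169 to 765719 in run 2. The readout per spiked positive control differed as well, with a ratio of endogenous to positive-control counts of 1.67 ± 0.171 in run 1 (SD, n = 6) and 7.54 ± 0.943 in run 2 (SD, n = 6). The background limit, the mean plus 2 SD of the 8 negative-control probes, lay between 16.1 and 31.1 counts, and 353 to 452 endogenous genes per sample exceeded it. Retnla, the gene of RELMα, had 5 to 18 raw counts per sample and lay under the limit of its sample in all 12; whether its probe lies within the deleted sequence was not stated. Itgax, which encodes CD11c, was above the limit in all 12.

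Promoter sequences are shown because the class II genes share an upstream X and Y box arrangement, bound by RFX and NF-Y, at which CIITA acts. Of the 5 genes, RefSeq's promoter table for GRCm38.p6 held H2-Aa and H2-Eb1. The 150 bases before each start site read as follows, 5′ to 3′ on the gene's strand, with GCAACT (part of the X box) and CTGATTGG (the Y box) in capitals. H2-Aa lies on the minus strand at chr17:34287824-34287973 and H2-Eb1 on the plus strand at chr17:34305717-34305866.
H2-Aa: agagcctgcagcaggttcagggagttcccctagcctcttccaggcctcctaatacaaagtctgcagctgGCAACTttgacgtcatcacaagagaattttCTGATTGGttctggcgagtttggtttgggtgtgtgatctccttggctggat
H2-Eb1: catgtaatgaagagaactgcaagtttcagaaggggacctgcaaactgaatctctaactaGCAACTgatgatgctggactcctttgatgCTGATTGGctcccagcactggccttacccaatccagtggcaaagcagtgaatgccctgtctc

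In H2-Aa the GCAACT starts 81 bases and the CTGATTGG 51 bases before the start site, with 24 bases between them. In H2-Eb1 they start 91 and 62 bases before it, with 23 bases between them. These letters were chosen after both promoters had been read, so the match describes them and is no test. Searched on both strands of the 250 bases before the start of 32851 promoter windows, GCAACT was in 9.01% and CTGATTGG in 3.83%, a motif that holds the shorter ATTGG (33.8%). The pair with 20 to 30 bases between occurred in 5 windows (0.0152%), those of H2-Aa, H2-Eb1, H2-Eb2, Gstz1 and Tigd3. TGACGTCA, the cyclic AMP element that lies next to some X boxes, was in the H2-Aa window and in 1.55% of all windows, and was not found in that of H2-Eb1. The windows of H2-DMa, H2-DMb1, H2-DMb2 and H2-Ob, genes of class II peptide loading, did not hold the pair as spelled here.

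The 5 genes separated into 4 with strong readings and 1 at background. Levels below are TMM-scaled counts, that is, raw counts divided by a size factor per sample from edgeR. Each gene has its own probe, and probes differ in how well they capture their target, so a level of 1 gene was not set against that of another as an amount of RNA.

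Invariant chain, Cd74, read 4555, 4763 and 4073 scaled counts in the 3 run 1 PBS samples and 4658, 4415 and 4842 in the 3 run 1 rRELMa samples. In run 2 it read 3229, 3235 and 3183 with PBS and 3229, 3324 and 3200 with rRELMa. All 6 run 1 samples lay above all 6 run 2 samples, and within each run the PBS and rRELMa samples overlapped.

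The I-A α chain, H2-Aa, read 2127, 2244 and 2070 in run 1 PBS and 2007, 1980 and 2170 in run 1 rRELMa. In run 2 it read 1060, 1097 and 998 with PBS and 1102, 1176 and 1111 with rRELMa. The runs again did not overlap. In run 2 each rRELMa sample lay above each PBS sample on this scale, whereas in run 1 the treatments overlapped.

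The I-A β chain, H2-Ab1, read 1640, 1620 and 1486 in run 1 PBS and 1449, 1464 and 1547 in run 1 rRELMa. In run 2 it read 681, 674 and 604 with PBS and 686, 690 and 672 with rRELMa. All 6 run 1 samples lay above all 6 run 2 samples, and the treatments overlapped in both.

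The I-E β chain, H2-Eb1, read 848, 1127 and 913 in run 1 PBS and 958, 967 and 1021 in run 1 rRELMa. In run 2 it read 619, 631 and 485 with PBS and 626, 672 and 637 with rRELMa. The lowest value, 485, came from run 2 PBS replicate 3, which also had the lowest total of run 2 (411169 endogenous counts). Its PBS samples spread more than its rRELMa samples in both runs, with an SD of 146 against 33.8 in run 1 and 80.9 against 24.2 in run 2 (n = 3 each).

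H2-Ea-ps, by contrast, had raw counts of 4, 5 and 4 in run 1 PBS and 5, 5 and 6 in run 1 rRELMa, then 1, 1 and 2 in run 2 PBS and 5, 4 and 2 in run 2 rRELMa. The negative-control probes averaged 7.62 to 15 counts per sample. The gene was above the background limit in 0 of 12 samples, so no I-E α transcript was detectable at this depth, and it entered no test. The 4 other genes passed the mean count minimum of 20 that left 415 genes for testing.

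**Figure D1:**
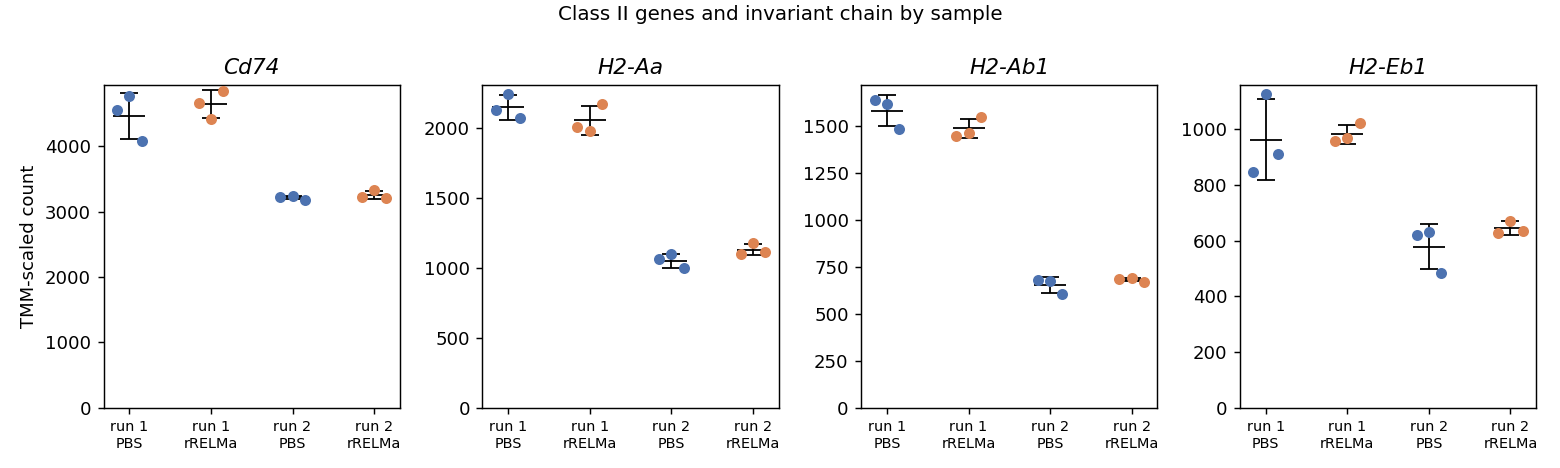
TMM-scaled counts (vertical axes, from 0) of Cd74, H2-Aa, H2-Ab1 and H2-Eb1 in each of the 12 samples, by group, with points for samples and bars for the mean and SD (n = 3). In each panel the 6 run 1 samples lie above the 6 run 2 samples on this scale. Per positive control, the order turns for all samples of Cd74, H2-Aa and H2-Eb1. For H2-Ab1 the group means turn but the runs overlap (0.345 in run 2 PBS replicate 3, 0.357 in run 1 PBS replicate 2).

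The comparison the study was built for is rRELMa against PBS. No class II gene was called for it at an adjusted p under 0.05, and the differences were small. Over both runs, with the run as a block in edgeR's quasi-likelihood test, H2-Eb1 had a log2 difference of 0.09 (SE 0.06, 95% interval -0.04 to 0.21, adjusted p = 0.761) and lay above the PBS mean of its run in 5 of 6 rRELMa samples. Cd74 had 0.03 (SE 0.04, interval -0.04 to 0.11, edgeR adjusted p = 0.871), with 4 of 6 rRELMa samples above the PBS mean.

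The I-A chains lay closer to 0. H2-Aa had a log2 difference of 0.02 (SE 0.04, interval -0.07 to 0.10, edgeR adjusted p = 0.945), with 4 of 6 rRELMa samples above. H2-Ab1 had -0.02 (SE 0.04, interval -0.10 to 0.07, edgeR adjusted p = 0.961), with 3 of 6 above. Over the 4 genes these 95% intervals reached at most 0.21 on the log2 scale. Of all 415 genes tested, 0.241% (1 gene) were called, and 32 had an unadjusted p under 0.05, none of them a class II gene.

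Within run 1 the I-A chains had slightly negative values, -0.09 for H2-Ab1 (SE 0.06, edgeR adjusted p = 0.794) and -0.07 for H2-Aa (SE 0.06, adjusted p = 0.814). Cd74 had 0.05 (SE 0.05, edgeR adjusted p = 0.873) and H2-Eb1 0.02 (SE 0.09, adjusted p = 0.971). No class II gene was called, beside 0.241% of all genes tested.

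Within run 2 all 4 values were positive with TMM, though Cd74 turned negative under other scalings. H2-Eb1 had 0.14 (SE 0.08, edgeR adjusted p = 0.661), and 0.04 to 0.21 with each sample left out in turn. H2-Aa had 0.10 (SE 0.05, interval -0.01 to 0.21, edgeR adjusted p = 0.632). H2-Ab1 had 0.06 (SE 0.06, edgeR adjusted p = 0.949) and Cd74 0.02 (SE 0.05, adjusted p = 0.996). No class II gene was called, and neither was any other gene (0% of 415), with 31 at an unadjusted p under 0.05. On the TMM scale H2-Aa was the 1 class II gene whose treatments did not overlap in run 2, beside 14.9% of all genes tested. The gap was narrow (1102 against 1097 scaled counts). The treatments overlapped as a share of endogenous counts, per reference gene and per positive control. In run 1 none was separated, beside 12.5%.

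The difference of the rRELMa effect between the runs, run 2 minus run 1, was 0.17 for H2-Aa (SE 0.08, unadjusted p = 0.0403, edgeR adjusted p = 0.714), 0.15 for H2-Ab1 (SE 0.08, adjusted p = 0.748) and 0.12 for H2-Eb1 (SE 0.12, adjusted p = 0.943). For Cd74 it was -0.04 (SE 0.07, edgeR adjusted p = 0.960). None was called, as for all genes tested (0%), where 28 had an unadjusted p under 0.05. On the TMM scale the H2-Ab1 samples lay on opposite sides, with 0 of 3 rRELMa samples above the PBS mean in run 1 and 3 of 3 in run 2. How many of all genes did so was not counted. The pattern depended on the scale. Per reference gene, run 1 rRELMa replicate 3 (9.50) lay above the PBS mean (8.89). As a share of endogenous counts, run 2 rRELMa replicate 3 (0.153%) lay below the PBS mean (0.158%).

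**Figure D2:**
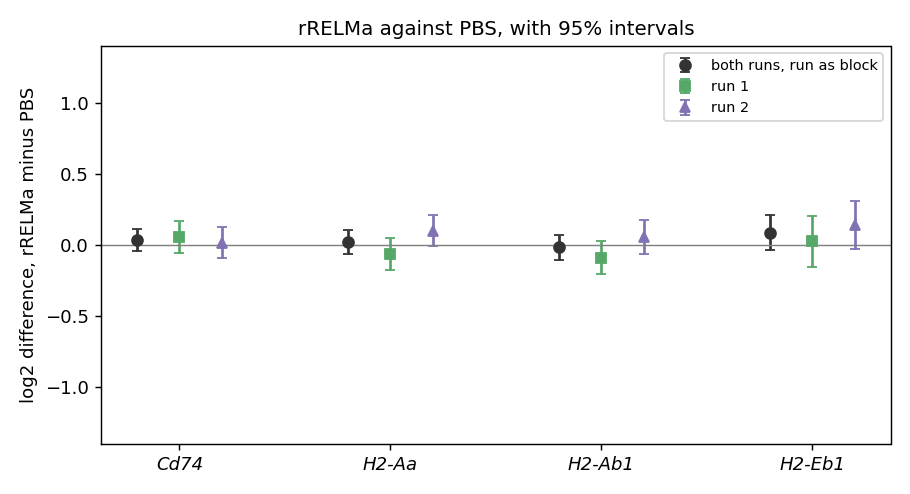
Log2 difference, rRELMa minus PBS (axis from -1.4 to 1.4), of the 4 class II genes within run 1, within run 2 and over both runs with the run as a block, with 95% intervals from edgeR. All intervals include 0.

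Run 2 against run 1 is a comparison of assay runs whose basis was not stated, so it describes these libraries and cannot be told apart from whatever else differed between the runs. In bulk samples, fewer cells of a type and less RNA per cell cannot be told apart either. All 4 class II genes were lower in run 2 with TMM scaling, in PBS and in rRELMa, and all 4 were higher with scaling to the positive controls. In PBS the genes called lower with TMM scaling were 35.9% of all genes tested, and those called in either direction 65.8%, with 29.9% called higher.

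In PBS, H2-Ab1 averaged 1582 ± 83.5 scaled counts in run 1 and 653 ± 42.5 in run 2 (SD, n = 3 each), 2.41-fold lower on the TMM scale (log2 difference -1.27, SE 0.06, edgeR adjusted p = 1.24e-17), but higher with the positive controls. H2-Aa averaged 2147 ± 88.4 and 1052 ± 49.8 (SD, n = 3 each), 2.04-fold lower (log2 difference -1.03, SE 0.05, edgeR adjusted p = 3.89e-16), with the same turn. On the TMM scale both I-A chains were thus lower in run 2 by a factor above 2, and both were higher with the positive controls.

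H2-Eb1 averaged 963 ± 146 in run 1 PBS and 579 ± 80.9 in run 2 PBS (SD, n = 3 each), 1.65-fold lower with TMM and higher with the positive controls (log2 difference -0.72, SE 0.09, edgeR adjusted p = 1.47e-08). Cd74 averaged 4463 ± 354 and 3216 ± 28 (SD, n = 3 each), 1.39-fold lower with TMM and higher with the positive controls (log2 difference -0.47, SE 0.05, edgeR adjusted p = 5.73e-09). The median log2 difference of the 4 genes was -0.87 and that of all 415 was -0.03.

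With rRELMa the order of the 4 genes was the same. On the TMM scale H2-Ab1 had -1.12 (edgeR adjusted p = 2.4e-16), H2-Aa -0.86 (adjusted p = 2.59e-14), H2-Eb1 -0.61 (adjusted p = 3.27e-07) and Cd74 -0.51 (adjusted p = 1.12e-09), all 4 turned to higher by the positive controls. The share of all genes called lower was 33.5%, that called higher 29.9%, and that called in either direction 63.4%. The runs did not overlap for any of the 4 genes in either treatment on the TMM scale, nor for 67% of all genes tested in PBS and 68% in rRELMa. The rRELMa and PBS samples carry the same run labels, so the comparison in rRELMa is not a second set of runs.

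The direction between the runs depended on what was held constant. Scaled to the positive controls, the median of all genes in PBS moved to 1.59, and Cd74 had a log2 difference of 1.14, H2-Eb1 0.89, H2-Aa 0.59 and H2-Ab1 0.35, all 4 called higher in run 2. In rRELMa the median of all genes was 1.91 and the same genes had 1.45, 1.35, 1.10 and 0.84. Scaled to library totals the median of all genes was -0.35 in PBS, to the 20 reference genes -0.33, and by quantiles 0.17.

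Relative to the median of all genes on the positive-control scale, the 4 genes stood at -0.45 (Cd74), -0.70 (H2-Eb1), -1.0 (H2-Aa) and -1.24 (H2-Ab1) in PBS. A factor per sample leaves that distance nearly fixed by construction, so TMM gave almost the same values. The settings that do move it gave Cd74 -0.89 by quantiles and -0.72 with negative controls subtracted, and H2-Ab1 -1.32 by quantiles and -1.52 with negative controls subtracted. Under all of these the 4 genes lay below the median of all genes. Their summed share of endogenous counts was 2.59% to 2.90% in run 1 and 1.27% to 1.39% in run 2.

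**Figure D3:**
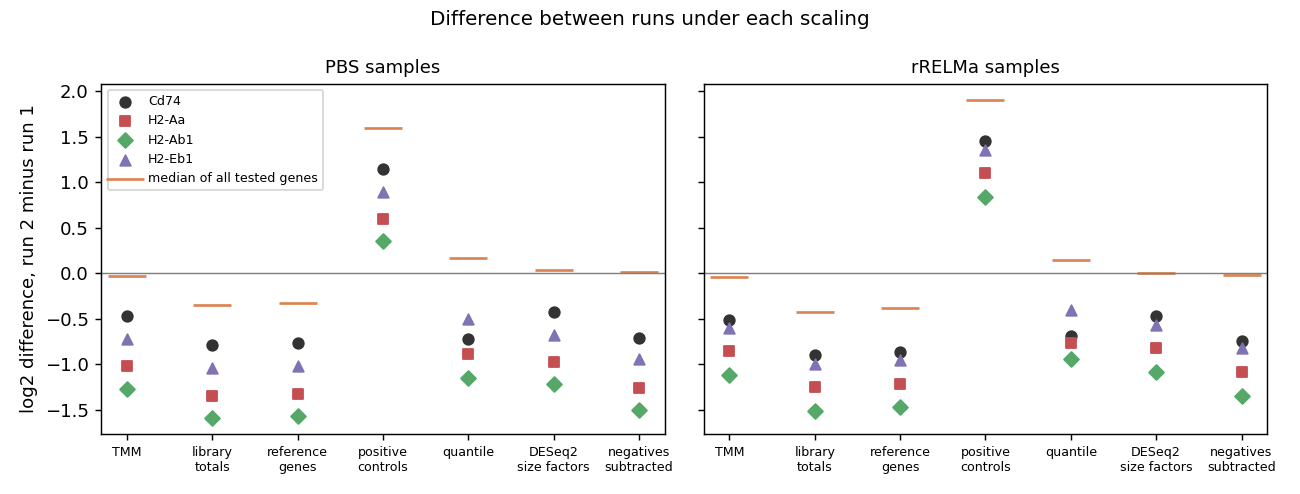
Log2 difference, run 2 minus run 1, of the 4 class II genes and the median of all tested genes under each scaling, in PBS and in rRELMa. The class II genes lie below the median of all genes throughout, and lie above 0 with the positive controls and below 0 with TMM.

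Ratios of raw counts within 1 sample need no scaling. Their absolute size depends on the probes, so only their change between samples is described. Cd74 per H2-Aa was 1.97 to 2.32 in the 6 run 1 samples and 2.83 to 3.19 in the 6 run 2 samples. Cd74 per H2-Ab1 was 2.74 to 3.21 and 4.71 to 5.27. Neither pair of ranges overlapped, so invariant chain counts were higher in proportion to both I-A chains in each run 2 sample. How often ratios of other panel genes separate the runs was not counted, for these ratios or those below. Whether the shifts are particular to class II genes was therefore not tested. Of single genes on the TMM scale, 67% in PBS and 68% in rRELMa did not overlap between the runs.

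The chains of I-A also shifted against each other. H2-Aa per H2-Ab1 was 1.3 to 1.4 in run 1 and 1.6 to 1.7 in run 2, and H2-Ab1 per H2-Eb1 was 1.44 to 1.93 in run 1 and 1.03 to 1.24 in run 2, both without overlap. H2-Aa per H2-Eb1 (1.99 to 2.51 and 1.71 to 2.06) and Cd74 per H2-Eb1 (4.23 to 5.37 and 4.95 to 6.56) overlapped between the runs. The high end of the last, 6.56, was run 2 PBS replicate 3, the sample with the lowest H2-Eb1. Cd74 per sum of the 3 chain genes was 0.911 to 1.06 in run 1 and 1.31 to 1.52 in run 2, without overlap.

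**Figure D4:**
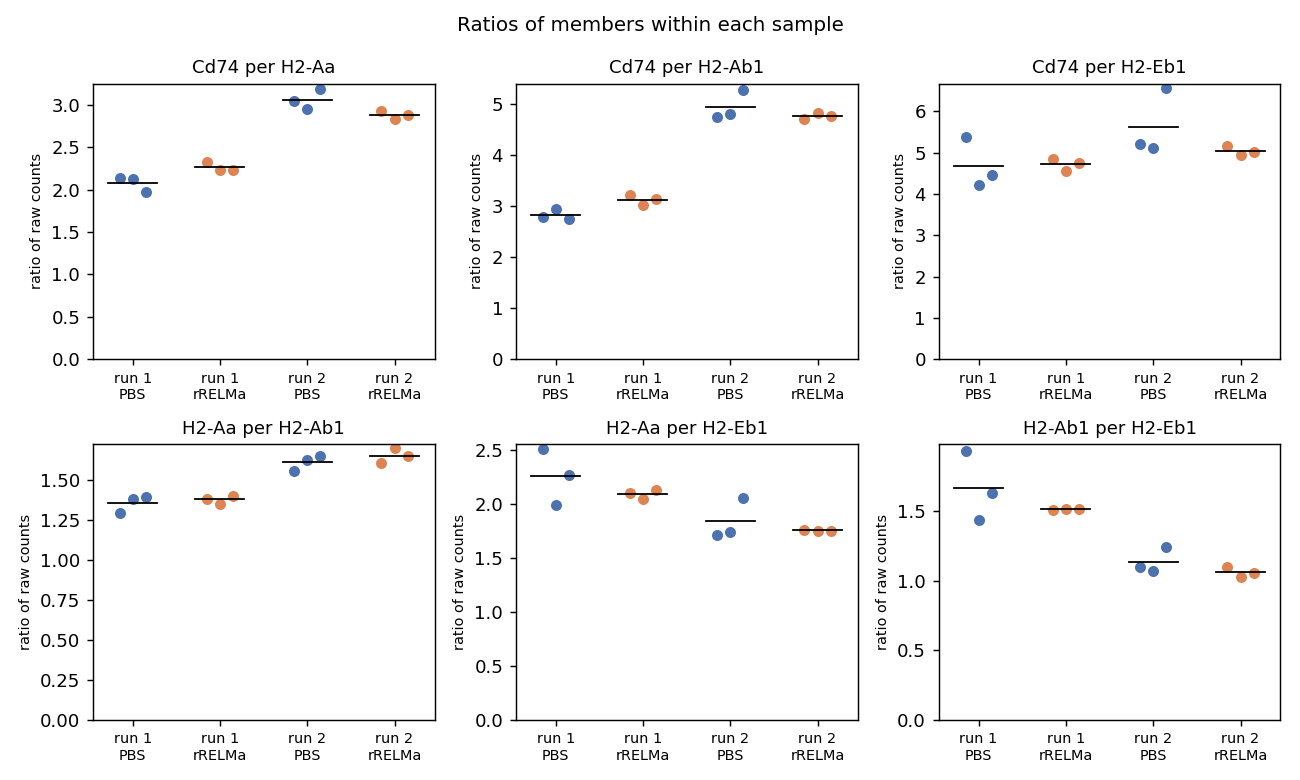
Ratios of raw counts within each sample (vertical axes, from 0) by group, 1 point per sample. Cd74 per H2-Aa, Cd74 per H2-Ab1 and H2-Aa per H2-Ab1 are higher in every run 2 sample than in every run 1 sample, and H2-Ab1 per H2-Eb1 is lower.

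Other genes of the pathway were read from the same fits. None of them was called for rRELMa against PBS or for the difference of that effect between the runs. The values that follow are log2 differences of run 2 minus run 1 on the TMM scale, in PBS and then in rRELMa.

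For peptide loading, the H2-DM heterodimer exchanges the invariant chain remnant for peptide, and H2-O restrains it. Of 4 such genes on the panel 2 were tested, and both were lower in run 2 with TMM but had positive values with the positive controls. H2-DMa had -1.26 and -1.16 and H2-DMb1 -0.96 and -0.88. H2-DMb1 and H2-DMb2 are near-identical paralogs whose probes may share target; H2-DMb2 and H2-Ob (mean raw counts of 12.5 and 6.75) were above background in 0 of 12 samples.

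The 3 endosomal proteases tested did not move as a set. Ctsd, an aspartic protease, had 1.39 and 1.43, higher in run 2 with TMM and with the positive controls but without a difference by quantiles. Ctss, the main protease that trims invariant chain in dendritic cells, had 0.17 and 0.37, called higher with TMM and with the positive controls. Its PBS value turned negative with library totals (-0.15, called lower), the reference genes or the negative controls subtracted, and its rRELMa value with library totals. Ctsl, which does that task in thymic epithelium, had -0.03 and 0.04 and was not called with TMM. In PBS it was called lower with library totals (-0.35) and higher with the positive controls (1.59). Cd83, which holds class II at the surface by opposing the ligase MARCH1, was called higher, with 0.76 in both and positive values under all scalings.

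Of the class II transcription factors 1 of 8 listed was on the panel. Nfyc, a subunit of the NF-Y complex that binds the CTGATTGG box shown above, had 0.64 in PBS, called higher, and 0.29 in rRELMa, not called (edgeR adjusted p = 0.125). With library totals and the reference genes its PBS values were 0.32 and 0.34, not called, and its rRELMa values -0.11 and -0.05. Of 10 genes of signals known to move class II levels, 8 were tested. With TMM 3 were called higher and 3 lower in PBS, and 2 higher and 4 lower in rRELMa. Those lower included Irf1 (-0.99 and -1.26), an interferon-induced transcription factor, and the interleukin-4 receptor chain Il4ra (-0.59 and -0.66). With the positive controls Irf1 and Il4ra turned to positive values.

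Tgfb1 (0.49 and 0.51) and Stat6 (0.41 and 0.43), which carries the interleukin-4 signal, were called higher in run 2 on the TMM scale. With library totals their PBS values were 0.17 and 0.09, and with library totals or the reference genes neither was called in rRELMa. Ifngr1, an interferon-γ receptor chain, was called higher in PBS only at this threshold (0.34 and 0.26, the second turning negative with library totals or the reference genes) and the difference of the 2 values was -0.08 (SE 0.18, edgeR adjusted p = 0.964). Irf8 (0.11 and -0.01) and, in PBS, Il10ra (-0.22) were not called. In rRELMa Il10ra was called lower (-0.36, edgeR adjusted p = 0.0193), and had 1.59 with the positive controls. Ifng itself had a mean raw count of 4.83 and was above background in 0 of 12 samples.

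The 4 tested genes of T cell costimulation and coinhibition, the ligands that act beside class II on the presenting cell, were all called lower in run 2 with TMM. Cd86 had -2.44 and -2.51 and stayed negative under all scalings. Cd274, which encodes PD-L1, had -1.03 and -1.19, Cd80 -0.75 and -0.53, and Pdcd1lg2, which encodes PD-L2, -0.63 and -0.74. These last 3 turned positive with the positive controls. By quantiles 2 of the 4 genes were called lower in each treatment. With negative controls subtracted 3 were called lower in PBS and 2 in rRELMa, and with DESeq2 3 in rRELMa. Raw counts were 22 to 66 for Cd80 and 22 to 61 for Pdcd1lg2 (above background in 11 of 12 samples), the lowest of them near the background limit.

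Markers of the cells the sort could hold moved with the runs as well, and their part in the class II differences was not tested. Of 7 alveolar macrophage markers tested 6 were called higher in run 2 PBS with TMM and 0 lower, and all 7 were called higher with the positive controls. They included Mrc1 (1.98), Fabp4 (1.60), Itgax (1.25) and Siglecf (1.75, above background in 8 of 12 samples). Marco (0.03) was not called with TMM and was called lower with library totals or the reference genes. Their summed level ranged from 64888 to 73029 scaled counts in run 1 PBS and from 94654 to 97669 in run 2 PBS, most of it Chil3, a chitinase-like protein (means of 67934 and 93836). The means of the 6 others summed to 1337 in run 1 PBS and 2758 in run 2 PBS.

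Of 7 interstitial macrophage and monocyte markers tested 0 were called higher and 6 lower in PBS with TMM, among them Cd14 (-1.77) and C1qa (-1.61). Csf1r (0.13) was not called. With the positive controls 6 of the 7 had positive values. The summed level of the 9 such markers on the panel was 1757 to 1929 scaled counts in run 1 PBS and 1247 to 1361 in run 2 PBS. Cx3cr1 was above background in 0 of 12 samples.

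Of 6 dendritic cell markers tested 3 were called higher and 1 lower in PBS with TMM. Fscn1 (1.38) and Ccr7 (1.14), genes of matured, migrating dendritic cells, and Batf3 (0.47) were higher. Batf3 was near the threshold (edgeR adjusted p = 0.0412 in PBS, 0.0743 in rRELMa) and above background in 10 of 12 samples. With library totals and the reference genes its PBS values were 0.15 and 0.17, and 2 dendritic cell markers were called higher with each. Clec9a (-2.08), a receptor of cross-presenting dendritic cells, was lower. With the positive controls it had -0.47 in PBS, called lower, and -0.23 in rRELMa, not called. Its lowest raw count was 18, though it was above background in all 12 samples. The summed level of the 8 listed genes on the panel was 402 to 496 scaled counts in run 1 PBS and 612 to 773 in run 2 PBS. Within it Ccr7 (means of 156 and 344), Fscn1 (78.5 and 208), Batf3 and Dpp4 were higher in run 2 PBS. Clec9a (108 and 24.6), Flt3, Irf4 and Xcr1 were lower, so the sum does not give the direction of each marker. Xcr1 was above background in 0 of 12 samples. Ms4a1, the 1 B cell marker on the panel, was also above background in 0 of 12, with a mean raw count of 10.

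In rRELMa the same lists had 6 higher and 0 lower (alveolar), 0 higher and 6 lower (interstitial and monocyte) and 2 higher and 1 lower (dendritic). Between treatments none of these markers was called.

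The genes whose pattern over the 12 samples was most like each class II gene were found by the root mean square log2 difference after each gene was centred on its mean. For Cd74 these were Ptafr (0.0591), Irf5 (0.0753), Cxcl16 (0.0864), Hif1a (0.0871) and H2-Q1 (0.0907), beside a median of 0.396 over all genes tested. H2-Eb1 ranked 22, H2-Aa 74 and H2-Ab1 181 in likeness to Cd74, so most of its nearest patterns were not class II genes.

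For H2-Aa the nearest were H2-K1 (0.0759), Tapbp (0.0874), S100a11 (0.0932), Cd274 (0.137) and Il21r (0.137), with H2-Ab1 at rank 4 (0.133) when class II genes were counted in and a median of 0.541. For H2-Ab1 they were Adam8 (0.0657), Psme2 (0.0797), Dusp1 (0.0962), Cd274 (0.102) and Cav1 (0.114), with H2-Aa at rank 6. The I-A chains were thus among each other's 6 nearest patterns.

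For H2-Eb1 the nearest were Ptafr (0.143), Selplg (0.147), Il4ra (0.15), Trafd1 (0.156) and H2-T23 (0.167), with Cd74 at rank 4 (0.153). The 12 samples come from 2 runs, and the scaling per sample is common to all genes, so genes with a like difference between the runs score as alike.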

How the data were processed

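The deposited table holds raw nCounter counts per probe, per the labels' protocols and the values themselves: 754 endogenous genes, 20 of them used here as reference genes, with 6 positive and 8 negative control probes. The authors' counting software was not given in the sources used here. Genes with a mean count of at least 20 (415, none of them a reference gene) were tested with edgeR 4.0.16 (TMM scaling, quasi-likelihood test, Benjamini-Hochberg over all 415, called at adjusted p under 0.05). The treatment fit had the run as a block. The within-run and run fits had 1 coefficient per group over all 12 samples. Alternatives used limma 3.58.1 and DESeq2 1.42.0, other scalings, no filter and left-out samples. Scripts were tested on simulated data. Replicate pairs differed by more than counting noise (chi-square over degrees of freedom, 1.55 to 3.25), so none was treated as a library deposited more than once. Symbols matched RefSeq for 744 genes, and 9 by synonym, H2-Ea-ps among them. The genes, lists and tests were chosen with earlier results of these data known. The named genes are the class II genes, the listed pathway and marker genes called in a comparison (up to 4 per list otherwise), and the 5 genes nearest in pattern to each class II gene. Values of some listed genes are not reported here.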

Additional observations from a re-analysis of the deposited data

Results flagged for a closer look

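In 3 of 7 ratios examined between class II genes, all rRELMa samples lay on one side of the PBS mean in run 1 and on the other side in run 2. Over all 85905 ratios of 2 tested genes 7.16% did so, and 0.574% also had no overlap of the treatments in either run. Those shares hold only ratios of 2 genes, so they do not cover Cd74 per sum of the 3 chain genes, which is among the 3 flagged. The difference between the runs was not tested for these ratios, and the ratios share Cd74, so they are not separate observations. Cd74 per H2-Aa averaged 2.08 with PBS and 2.26 with rRELMa in run 1 (a difference of 0.184), and 3.06 with PBS and 2.88 with rRELMa in run 2 (-0.182). Its treatments did not overlap in either run. Cd74 per H2-Ab1 differed by 0.300 in run 1, without overlap, and by -0.175 in run 2, with overlap. Cd74 per sum of the 3 chain genes differed by 0.0751 in run 1 and by -0.0898 in run 2, without overlap in either. The run 2 PBS means lean on replicate 3. Its Cd74 per H2-Ab1 was 5.27, beside 4.74 and 4.80 in the other PBS samples and 4.71 to 4.82 with rRELMa. Its Cd74 per sum was 1.52, beside 1.37 and 1.35 in the other PBS samples and 1.31 to 1.34 with rRELMa. The differences without that sample were not computed.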

How the results depend on the processing

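No class II gene was called for rRELMa against PBS, within either run or for the difference of effects under any of the 21 or 22 alternatives run for each. Between runs 4 were called in PBS and in rRELMa, except 3 without the filter on low counts, where Cd74 was not called (log2 difference -0.10 in PBS, edgeR adjusted p = 0.114, and -0.11 in rRELMa, adjusted p = 0.0941). The positive controls reversed the run difference to 1.14, 0.59, 0.35 and 0.89 in PBS and 1.45, 1.10, 0.84 and 1.35 in rRELMa (Cd74, H2-Aa, H2-Ab1, H2-Eb1). The split of all calls into higher and lower in PBS was 124 and 149 with TMM, 64 and 217 with library totals, 63 and 206 with the reference genes, 366 and 20 with the positive controls, and 163 and 107 by quantiles. The cause of these changes was not tested.

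Uncalled treatment values near 0 changed sign. Over both runs H2-Aa had -0.0065 with library totals, -0.0034 with reference genes, -0.026 by quantiles, -0.012 with DESeq2, -0.0030 with negative controls subtracted and -0.0078 with no run in the model, and H2-Ab1 had 0.012 without the filter. In run 1 Cd74 had -0.12 and H2-Eb1 -0.16 with the positive controls. In run 2 Cd74 had -0.043 with library totals, -0.033 with reference genes, -0.020 with DESeq2, -0.0032 with negative controls subtracted and -0.00081 with run 2 alone, and H2-Ab1 -0.0018 with library totals. The difference of effects for Cd74 was 0.31 with the positive controls and 0.034 by quantiles.

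Leaving out each sample in turn, which made no class II call, gave -0.027 to 0.042 for Cd74 and -0.022 to 0.022 for H2-Aa over both runs, turning Cd74 without run 1 PBS replicate 3 or run 1 rRELMa replicate 3, and H2-Aa without either of those, run 2 PBS replicate 3 or run 2 rRELMa replicate 2. It gave -0.059 to 0.078 for Cd74 and -0.084 to 0.13 for H2-Eb1 in run 1, -0.0031 to 0.027 for Cd74 in run 2, and -0.081 to 0.056 for Cd74 and -0.0059 to 0.21 for H2-Eb1 in the difference. Run differences ranged from -1.32 to -1.22 for H2-Ab1 in PBS and from -0.54 to -0.40 for Cd74.

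Counts over all genes moved by more than 1.5 times as follows. Treatment over both runs gave 2 without the filter and 0 without the run. Run 1 gave 5 by quantiles, 2 with negative controls subtracted, and 0 with library totals, reference genes, DESeq2, limma with a pseudocount of 1, no filter, or 6 of 12 samples left out singly. Run 2 gave 1 with run 2 alone, and the difference of effects 1 by quantiles. Between runs 414 (PBS) and 420 (rRELMa) were called without the filter, and 395 in rRELMa with the positive controls. Samples of the same number did not deviate together (correlations -0.16 to -0.0044), so the numbers were not taken as pairs. With the replicate block 0 class II genes were called for treatment over both runs, within a run or for the difference of effects, 4 between runs in PBS and 4 in rRELMa, and 1 gene of all in run 2; the block changed no class II call.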
